A study of Mus musculus with 6 samples.

Results

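Cholesterol is built in the endoplasmic reticulum and cytosol from acetyl-CoA, and 7 genes that serve or restrain this route were followed here in cultured mouse thymic tuft cells: Hmgcs1, Idi1, Fdps, Fdft1, Sqle, Cyp51 and Insig1. They were chosen by symbol. The deposited table of 9088 genes lists 4 of them (Hmgcs1, Fdps, Sqle and Cyp51), and the other 3 (Idi1, Fdft1 and Insig1) are not analysed here. None of the 7 is an uptake gene, so genes of uptake were followed in a separate list. With rIL-13, recombinant interleukin 13, no listed member passed the test: Hmgcs1 and Fdps overlapped between the groups, Sqle was lower in every rIL-13 library without passing the test, and Cyp51 was at the edge of detection.

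Tuft cells are rare chemosensory epithelial cells, in the thymus found in the medulla. They were sorted from the thymus of male wild-type mice described as young, aggregated and kept ex vivo for 12 h and, after a change of medium, for another 24 h. The cells then received 20 ng/mL rIL-13 for 24 h, or PBS as vehicle, and polyadenylated RNA was counted in bulk by MARS-seq, in which unique molecular identifiers (UMIs) mark single captured 3' ends. Each group has 3 libraries, both groups share genotype, sex, sort and culture, and an exact age is not given. The labels do not say whether replicates are separate animals or cultures, so p-values here measure library-to-library spread that may be only technical. Values of a group are listed in the order of replicates 1, 2 and 3.

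In the mevalonate pathway, HMG-CoA synthase (Hmgcs1) makes the precursor of mevalonate, which kinases and a decarboxylase turn into isopentenyl units. Idi1 isomerizes these units, Fdps joins them into farnesyl diphosphate, which also feeds protein prenylation, and Fdft1 commits it to squalene. Sqle adds the first oxygen to squalene and Cyp51 removes a methyl group from lanosterol. When membranes are short of sterol, the factor SREBP-2 (gene Srebf2) is carried to the Golgi by SCAP, cut, and switches on these genes, while Insig1 holds the complex back when sterol is ample.

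The proximal promoters of Hmgcs1 and Cyp51 are shown because SREBP-2 is known to act on genes of this pathway through short sterol elements close to the start, often beside CCAAT boxes. They are RefSeq sequences on GRCm38.p6, 5' to 3' on the gene's own strand, and RefSeq's table used here holds these 2 of the 4 listed members. Capitals mark TCACCNCA, a core shared by many sterol elements, and CCAAT, each searched on both strands, so that ATTGG is CCAAT read on the other strand. The first is the plus strand at chr13:119690101-119690350 and the second the minus strand at chr5:4104747-4104947, without the 49 bases that GENCODE counts as part of Cyp51.
Hmgcs1: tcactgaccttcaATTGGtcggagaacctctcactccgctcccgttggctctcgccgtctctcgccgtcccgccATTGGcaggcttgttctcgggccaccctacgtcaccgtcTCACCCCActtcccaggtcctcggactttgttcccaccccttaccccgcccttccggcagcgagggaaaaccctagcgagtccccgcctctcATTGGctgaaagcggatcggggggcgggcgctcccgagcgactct
Cyp51: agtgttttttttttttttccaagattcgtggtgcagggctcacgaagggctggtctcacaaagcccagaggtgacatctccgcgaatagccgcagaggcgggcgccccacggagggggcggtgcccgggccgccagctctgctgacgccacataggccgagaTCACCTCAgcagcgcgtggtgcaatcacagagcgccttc
Hmgcs1 held 1 match to TCACCNCA, 130 to 137 bases before the RefSeq start, and 3 matches to CCAAT. Cyp51 held 1 match to TCACCNCA, 81 to 88 bases before the start, and 1 match to CCAAT in the 49 bases left out. The motifs do not overlap each other. Of 32851 promoter windows of 250 bases in the table, 3.61% held TCACCNCA and 33.8% held CCAAT. TCACCNCA was chosen with these promoters in view, so no enrichment is read from its matches beside that share. These matches describe letters only, and binding was not measured.

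Over the listed genes, vehicle libraries summed to 394513 to 489919 UMIs and rIL-13 libraries to 248028 to 295614, so 1 UMI was worth 2.17 to 2.81 CPM with vehicle and 3.59 to 4.22 CPM with rIL-13 (CPM, UMI counts scaled to library size with TMM factors). Every gene in the table has at least 6 UMIs in some library. All 10 defining tuft markers were listed, and the 23 listed tuft markers held 0.717 to 0.834% of UMIs with vehicle and 0.712 to 1.32% with rIL-13. Thymic epithelial markers (7 of 10 listed, without Foxn1, Aire and Psmb11) held 0.217 to 0.252% with vehicle and 0.236 to 0.305% with rIL-13. Of the 6 tested, 5 had a log2 fold change above 0 and none was called. Of the other cell types, 10 of 12 fibroblast markers were listed, at 0.185 to 0.245% with vehicle and 0.113 to 0.253% with rIL-13, and all 7 mesothelial markers, at 0.144 to 0.354% and 0.153 to 0.270%. Muscle-like markers (7 of 9) held 0.0327 to 0.311% with vehicle and 0.00927 to 0.0877% with rIL-13. Thymocyte (2 of 12), myeloid (2 of 10), B cell (1 of 5) and endothelial (4 of 6) markers each held under 0.03% in every library, and the defining genes Cd3e, Cd4, Cd8a, Rag1, Lyz2, Itgam, Cd79a, Ms4a1, Pecam1 and Cdh5 are not among the listed genes. Of 19 tested tuft markers 16 had a log2 fold change above 0 with rIL-13, with a median of 0.59, and Ptpn18 was called higher (1.54 ± 0.26, edgeR adjusted p = 0.0204). All 3 tested muscle-like markers lay below 0, and Des was called lower (-1.70 ± 0.28, edgeR adjusted p = 0.0204), while 5 of 6 mesothelial and 7 of 9 fibroblast markers tested were below 0 with none called. In bulk samples, fewer cells of a type and less RNA per cell cannot be told apart.

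Hmgcs1, which makes HMG-CoA at the entry of the pathway, was higher on average with rIL-13 and did not pass. The vehicle libraries counted 17, 44 and 32 UMIs and the rIL-13 libraries 22, 26 and 30, or 47.7, 102 and 69.5 CPM against 80.8, 93.4 and 127 CPM. The groups overlapped, since vehicle replicate 2 lay above rIL-13 replicates 1 and 2. The means were 73.1 ± 27.4 CPM with vehicle and 100 ± 23.7 CPM with rIL-13 (SD, n = 3 each). The fitted log2 fold change of 0.44 ± 0.34 (SE) did not pass (edgeR quasi-likelihood test, Benjamini-Hochberg adjusted p = 0.918), with a 95% interval of 0.83- to 2.20-fold. Within each group, the order of the libraries by Hmgcs1 was also their order by the share of tuft markers, which was 0.717, 0.834 and 0.752% for vehicle against 0.712, 1.20 and 1.32% for rIL-13. Fdps and Sqle did not follow that order in either group. The part of tuft cell content in the level of Hmgcs1 was not tested.

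Fdps, the farnesyl diphosphate synthase at the branch to sterols and prenyl groups, was the member with the most UMIs and the narrowest interval. It was counted at 68, 98 and 83 UMIs in vehicle and 51, 42 and 51 in rIL-13 libraries, which corresponds to 191, 227 and 180 CPM against 187, 151 and 215 CPM. Vehicle replicate 2 was the highest library and rIL-13 replicate 2 the lowest, with the other 4 between them. The mean was 199 ± 24.8 CPM with vehicle and 185 ± 32.4 CPM with rIL-13 (SD, n = 3 each). The log2 fold change was -0.12 ± 0.25 (SE; edgeR adjusted p = 0.972), and its 95% interval ran from 0.64- to 1.32-fold.

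Sqle, squalene epoxidase, the enzyme of the first oxygen-dependent step, was the single listed member whose libraries separated. Its vehicle libraries counted 11, 15 and 14 UMIs and its rIL-13 libraries 6, 5 and 6, or 30.9, 34.8 and 30.4 CPM against 22.0, 18 and 25.3 CPM. The nearest libraries were vehicle replicate 3 and rIL-13 replicate 3, in which 1 UMI was worth 2.17 and 4.22 CPM. Among all 9088 listed genes the CPM of the groups did not overlap in 11.1%, and in 5.94% the rIL-13 libraries were the lower ones, so 1 of 4 members is a count from which nothing is read. The means were 32 ± 2.42 CPM with vehicle and 21.8 ± 3.70 CPM with rIL-13 (SD, n = 3 each). Sqle fell under the count filter, and the fit without a filter gave -0.57 ± 0.50 (log2 fold change, SE), which did not pass (edgeR adjusted p = 0.958), with a 95% interval of 0.33- to 1.38-fold. In that fit 0.077% of the 9088 genes passed.

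Cyp51, the lanosterol demethylase, was hardly detected, with 0, 6 and 1 UMIs under vehicle against 1, 1 and 0 under rIL-13. Most of its UMIs, 6 of 9, came from vehicle replicate 2, at 13.9 CPM. The other 5 libraries lay at or below 3.67 CPM, under the level of 3 UMIs, which is 6.51 to 12.7 CPM depending on the library. From 7 UMIs with vehicle and 2 with rIL-13, the ratio of rIL-13 over vehicle was 0.45 (exact conditional binomial 95% interval 0.046 to 2.38, covering counting error alone). In the fit without a filter the gene did not pass (edgeR adjusted p = 0.982), and its log2 fold change turned from -1.03 to 0.87 without vehicle replicate 2. A difference in Cyp51 was not detectable at this depth.

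**Figure D1:**
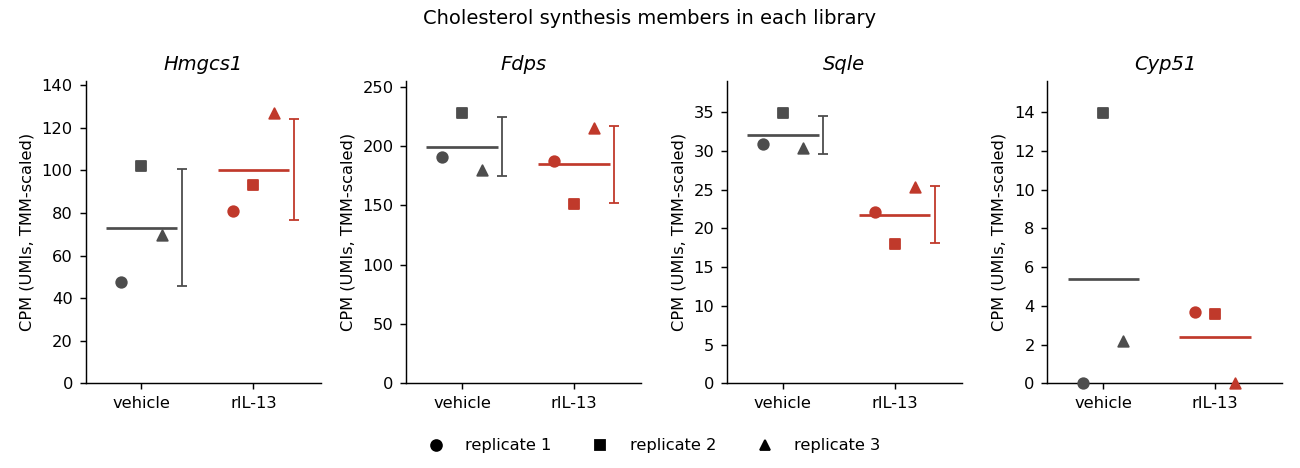
Level of each listed member in CPM (TMM-scaled UMIs) in the vehicle and rIL-13 libraries; points are libraries with the marker giving the replicate, horizontal lines are group means and bars are 1 SD (n = 3), left out for Cyp51, which has 0 to 6 UMIs. Hmgcs1 and Fdps overlap between the groups, and the 3 rIL-13 points of Sqle (18 to 25.3 CPM) lie below the vehicle points (30.4 to 34.8 CPM).

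None of the listed members passed. At an adjusted p under 0.05, 3 of 5135 tested genes were called, or 0.0584%, and neither of the 2 tested members (Hmgcs1 and Fdps) was among them. At an unadjusted p under 0.05 the count was again 0 members, against 5.49% of tested genes, and DESeq2, which called 0.0661% of genes, and limma voom, which called 0%, called 0 members as well. The median log2 fold change of the 2 tested members was 0.16, with 0.00 over all tested genes. Over all 4 listed members, in the fit without a filter, the median had the other sign, at -0.35 against -0.02 over all listed genes, with Hmgcs1 above 0 and the other 3 below. Together the 4 members held 0.0243, 0.0356 and 0.0265% of the UMIs of the vehicle libraries and 0.0271, 0.0258 and 0.0351% of those of the rIL-13 libraries. The group means were 0.0288 ± 0.00597% and 0.0293 ± 0.00504% (SD, n = 3 each), and the groups overlapped. In the authors' deposited table, with the sign turned so that positive is higher with rIL-13, the log2 fold changes were 0.44 for Hmgcs1, -0.12 for Fdps, -0.57 for Sqle and -1.12 for Cyp51, and none passed there.

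The members' levels spanned most of the table. Ranked by mean CPM in the vehicle libraries, on counts of captured 3' ends that were not divided by transcript length, Fdps stood at 960 of 9088 listed genes, Hmgcs1 at 2657, Sqle at 4890 and Cyp51 at 8912. The members did not move as a block across the 6 libraries. Vehicle replicate 2 was the highest vehicle library for all 4 and rIL-13 replicate 3 the highest rIL-13 library for Hmgcs1, Fdps and Sqle, but rIL-13 replicate 3 had 0 UMIs of Cyp51, and rIL-13 replicate 2 was lowest in its group for Fdps and Sqle and not for Hmgcs1.

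In mm10, by GENCODE M21, Hmgcs1 lies on chromosome 13 at 119690379 to 119708260 and Sqle on chromosome 15 at 59315077 to 59331192, each on the plus strand. Fdps lies on chromosome 3 at 89093588 to 89101959 and Cyp51 on chromosome 5 at 4081145 to 4104746, each on the minus strand, and all 4 are protein-coding. Sqle overlaps no other gene. Fdps shares 7512 bases on its own strand with the gene model Gm43738, and Hmgcs1 overlaps the antisense model Gm48342 by 6190 bases, neither of which is among the listed genes. The last 166 bases of Cyp51, its 3' end, overlap the end of Akap9 on the opposite strand. How reads in such overlaps were assigned is not given in the sources used here, so the counts of Fdps, Hmgcs1 and Cyp51 are uncertain to that extent.

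The rest of the synthesis route showed no called gene either. Of 23 enzymes of cholesterol synthesis, the members included, 18 were listed, 8 passed the count filter and 0 were called by edgeR. Over the 18, 10 log2 fold changes were above 0 and 8 below, and their median was 0.16 in the fit without a filter, against -0.02 over all listed genes. The mevalonate kinases were the 2 non-member enzymes with the smallest p among those tested. Pmvk, phosphomevalonate kinase, had 50.5, 30.2 and 28.2 CPM with vehicle and 47.8, 68.2 and 50.7 CPM with rIL-13 (log2 fold change 0.63 ± 0.41, edgeR adjusted p = 0.871). Mvk, mevalonate kinase, had 61.7, 62.7 and 93.3 CPM with vehicle and 66.1, 46.7 and 54.9 CPM with rIL-13 (-0.38 ± 0.34, edgeR adjusted p = 0.926). In both, the groups overlapped, and these successive steps differed in sign.

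One enzyme had an unadjusted p under 0.05, Msmo1, the sterol methyl oxidase that acts after Cyp51, named after its values were seen. Its vehicle libraries counted 14, 32 and 7 UMIs and its rIL-13 libraries 3, 4 and 7, and the fit without a filter gave -1.25 ± 0.58, short of the threshold (edgeR adjusted p = 0.896). The groups overlapped, with rIL-13 replicate 3 at 29.6 CPM above vehicle replicate 3 at 15.2 CPM.

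**Figure D2:**
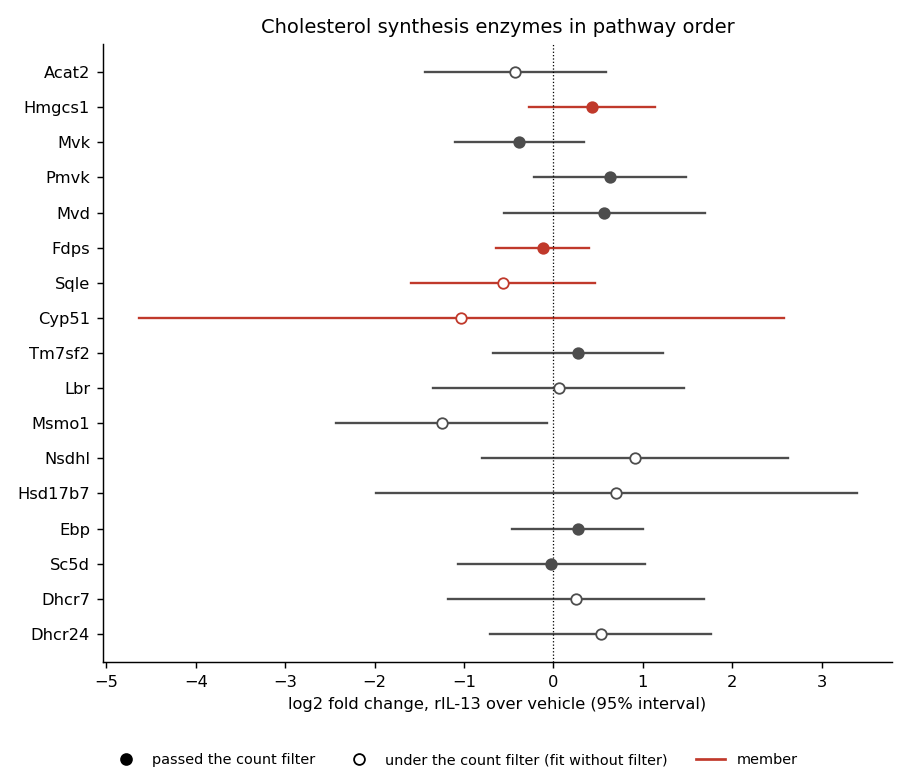
Fitted log2 fold change of rIL-13 over vehicle (x axis, with 95% intervals) for 17 of the 18 listed cholesterol synthesis enzymes from the first step (top) to the last; red are the members, and open points are genes under the count filter. The intervals of all 4 members include 0, from the narrowest for Fdps (-0.64 to 0.40) to the widest for Cyp51 (-4.64 to 2.58), and the interval of Msmo1 lies below 0 before adjustment.

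No gene of cholesterol uptake or transport passed. Of 19 genes in this list 14 were listed and 8 tested, 0 were called, and their median log2 fold change was 0.15. Gramd1b, a carrier that brings plasma membrane cholesterol to the endoplasmic reticulum, had 112, 137 and 99.8 CPM with vehicle and 136, 194 and 203 CPM with rIL-13 (0.61 ± 0.27, edgeR adjusted p = 0.860). Stard3, a sterol carrier of late endosomes, had 42.1, 60.3 and 62.9 CPM with vehicle and 80.8, 75.4 and 92.9 CPM with rIL-13 (0.57 ± 0.32, edgeR adjusted p = 0.860). The groups overlapped for Gramd1b and separated for Stard3, as they did for 11.1% of all listed genes.

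The regulators of the pathway gave 9 tested of 13 listed genes, 0 called, and a median log2 fold change of 0.02 (-0.05 over the 13 in the fit without a filter). Srebf2, which encodes SREBP-2, the main activator of the members, had 42.1, 55.7 and 34.7 CPM with vehicle and 44.1, 46.7 and 38.0 CPM with rIL-13. All 3 rIL-13 libraries fell inside the range of the vehicle libraries, with a fitted log2 difference of -0.04 ± 0.40 (edgeR adjusted p = 0.996; 95% interval 0.55- to 1.74-fold). Srebf1, whose products act mainly on fatty acid genes, had 56.1, 41.8 and 45.6 CPM with vehicle and 88.2, 75.4 and 80.3 CPM with rIL-13. The groups separated, but the log2 fold change of 0.77 ± 0.33 did not pass (edgeR adjusted p = 0.832). Of the 13 listed regulators, Srebf1 included, 2 separated as higher and 1 as lower, and 11.1% of all 9088 listed genes separated. Nothing is read from these counts. Pgrmc1, a heme-binding membrane protein, had 180, 107 and 91.2 CPM with vehicle and 58.8, 57.5 and 92.9 CPM with rIL-13 (-0.85 ± 0.34, edgeR adjusted p = 0.806). Whether the difference of Srebf1 is larger than that of Srebf2 was not tested.

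Of the genes of cholesterol export, esterification and oxysterols, 5 of 12 were listed and 2 tested, neither called. The 2 tested genes lay on opposite sides of 0, and over the 5 listed genes the median log2 fold change in the fit without a filter was -0.60. Ch25h, a cholesterol hydroxylase whose oxysterol product restrains SREBP cleavage, had 11.2, 41.8 and 58.6 CPM with vehicle and 69.8, 93.4 and 54.9 CPM with rIL-13 (0.93 ± 0.45, edgeR adjusted p = 0.860). Apoe, the lipoprotein that carries exported cholesterol, had 98.2, 144 and 86.8 CPM with vehicle and 33.1, 89.8 and 97.1 CPM with rIL-13 (-0.59 ± 0.37, edgeR adjusted p = 0.866). Both overlapped between the groups, Ch25h through vehicle replicate 3 and Apoe through rIL-13 replicates 2 and 3.

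**Figure D3:**
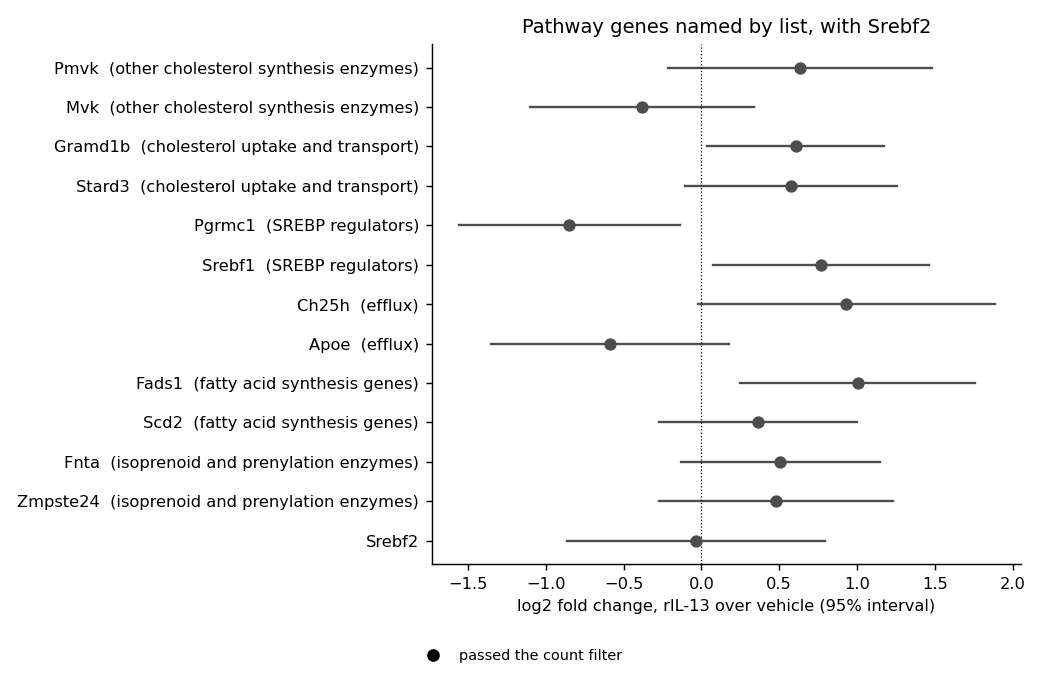
Fitted log2 fold change of rIL-13 over vehicle (x axis, with 95% intervals) for the 2 tested genes with the smallest p of each pathway list and for Srebf2. The intervals of Gramd1b, Srebf1, Fads1 and Pgrmc1 leave out 0 before adjustment, and no gene passed after adjustment over all 5135 genes tested.

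Over the 6 pathway lists beside the members, 40 genes were tested and 0 were called. At an unadjusted p under 0.05, 3 were higher and 1 lower, or 10% of the 40, against 5.49% of all tested genes. Srebf1 (higher), Gramd1b (higher), Fads1 (higher) and Pgrmc1 (lower) were these genes.

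The genes whose levels followed the mean of Hmgcs1 and Fdps most closely over the 6 libraries were not among the pathway lists. These 2 members had a Pearson r of only 0.29 with each other, so closeness to their mean is not closeness to each of them. Likeness was Pearson's r, over 6 libraries and 5133 candidates, between a gene's log2 CPM and the mean standardized log2 CPM of these 2 tested members. It is a description of genes chosen for it, and all genes share the libraries' depth. The 5 closest were Exosc10 (r = 0.977), an RNA exosome nuclease, Dpp9 (r = 0.972), a peptidase, Rps3 (r = 0.967), a ribosomal protein, Copz1 (r = 0.955), a coatomer subunit, and Tbc1d20 (r = 0.952), a Rab regulator. Like the member score, which stood at 0.92 in vehicle replicate 2 and 1.06 in rIL-13 replicate 3 and below 0 in the other 4 libraries, all 5 had their highest 2 libraries there. Without those 2 libraries r was 0.999 for Exosc10, 0.739 for Dpp9, 0.959 for Rps3, 0.460 for Copz1 and 0.523 for Tbc1d20, so the last 2 likenesses rest on them.

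**Figure D4:**
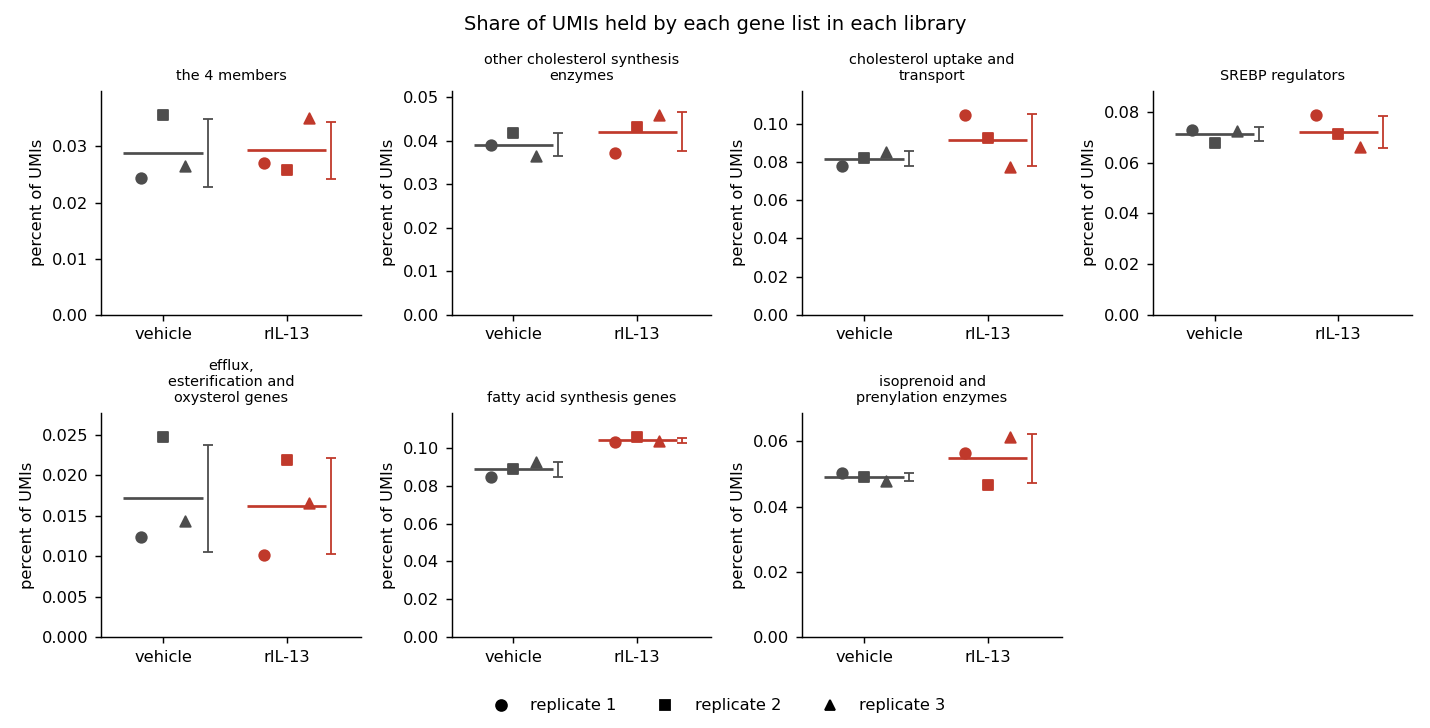
Percent of each library's UMIs held by the 4 listed members and by each pathway list (y axes start at 0); points are libraries with the marker giving the replicate, lines are group means and bars are 1 SD (n = 3). The members' share overlaps between vehicle (0.0243 to 0.0356%) and rIL-13 (0.0258 to 0.0351%).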

How the data were processed

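The labels describe bulk 3' MARS-seq of 3 rIL-13 and 3 vehicle libraries, with groups and replicate numbers taken from the titles. The submitters' processing notes name bcl2fastq, cutadapt, STAR 2.5.2b, HTSeq, DESeq2 and mm10, with no role or order. Per the file headers, the deposited table holds raw UMI counts, a normalized signal (counts over size factors, and its mean), regularized log2 values, and a comparison by the authors with log2 fold changes and p-values, vehicle over rIL-13, turned in sign here. All tests here start from the deposited counts.

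Tests used edgeR 4.0.16 (R 4.3.3): robust quasi-likelihood F tests with TMM scaling, group as the single term and the default low-count filter, which kept 5135 of 9088 genes with 93.8% of UMIs. Genes varied by 24.9% beyond counting error (biological coefficient of variation). The threshold was an adjusted p of 0.05 (Benjamini-Hochberg over all tested genes, two-sided). Genes under the filter are given from the same fit with 1 UMI in total as the requirement. Standard errors come from the F statistic and 95% intervals from the t quantile at its degrees of freedom. The fits were tested on simulated data.

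The members and gene lists were chosen with earlier results of these data known, and TCACCNCA with the promoters in view. Named genes are the members, Srebf2, the 2 tested genes with the smallest p of each of 6 pathway lists, and the 5 most alike; some genes that this rule also names are not reported here. Msmo1 was added after its values were seen. Log2 CPM for likeness used a prior count of 2. Alternatives were DESeq2 1.42.0, limma 3.58.1 (voom), other scalings and filters, a replicate block and libraries left out. Figures used matplotlib 3.10.9.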

Additional observations from a re-analysis of the deposited data

How the results depend on the processing

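Under all 14 alternative settings of the test (DESeq2, limma voom, other scaling factors, other filters, a replicate block, and libraries left out singly or as a pair), 0 members and 0 genes of the other pathway lists were called. The lowest adjusted p of a member was 0.609, for Hmgcs1 without rIL-13 replicate 1. Leaving out each library in turn gave a log2 fold change of 0.21 to 0.74 for Hmgcs1, -0.23 to 0.0084 for Fdps, -0.67 to -0.43 for Sqle, -1.53 to 0.87 for Cyp51 and -0.19 to 0.15 for Srebf2. Fdps, Cyp51 and Srebf2 thus changed sign, and so did Srebf2 with limma voom, at 0.020. The other 12 named pathway genes kept their sign, but 6 moved by over 1.5 times on the log2 scale: Mvk ran from -0.55 to -0.16 (without vehicle replicate 3), Apoe from -0.83 to -0.25 (without rIL-13 replicate 1), Fnta from 0.16 (without rIL-13 replicate 3) to 0.72, Scd2 from 0.19 (without vehicle replicate 2) to 0.56, and both Ch25h (0.53 to 1.41) and Pgrmc1 (-1.10 to -0.52) were smallest without vehicle replicate 1. The median over the tested members ran from 0.01 to 0.35, and the members' share of UMIs from 0.0254 to 0.0311% with vehicle and from 0.0264 to 0.0311% with rIL-13.

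Replicate numbers did not pair the libraries: deviations from the group means of same-numbered libraries had correlations of -0.07, 0.07 and -0.22, and not every library was closest to its own number. The highest correlation, 0.25, was between vehicle replicate 3 and rIL-13 replicate 1. By Spearman correlation of counts these were also the most alike of all pairs of libraries (0.885), within or between groups. With the replicate block, Hmgcs1 was at 0.48 and Fdps at -0.12, and over all genes 8 were higher and 5 lower, against 2 and 1. Without a filter these counts were 5 and 2, with DESeq2 4 and 2, with limma voom 0 and 0, without vehicle replicate 3 and rIL-13 replicate 1 together 21 and 10, and with 1 library left out 1 to 20 and 0 to 15. The cause was not tested. Depth limits Cyp51 most, with at most 6 UMIs in any library, and Sqle, with 5 to 15.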

Other observations

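Fatty acid synthesis genes, which SREBP-1 regulates alongside the sterol pathway, held a larger share of UMIs in all 3 rIL-13 libraries than in any vehicle library. The 13 listed genes held 0.0844, 0.0887 and 0.0925% of the UMIs of the vehicle libraries, against 0.103, 0.105 and 0.104% of those of the rIL-13 libraries. The shares of the members and of every other pathway list overlapped between the groups. Among single genes, the CPM of the groups did not overlap in 11.1% of all 9088 listed, so nothing is read from this separation. Fasn, Acacb, Acss2 and Elovl6 were not listed. Elovl1 held the most UMIs of these genes in every library. Its levels were 326, 343 and 317 CPM with vehicle and 467, 305 and 338 CPM with rIL-13 (log2 fold change 0.17 ± 0.23, edgeR adjusted p = 0.941). Acly (0.03), and in the fit without a filter Acaca (0.12) and Scd1 (-0.06), lay near 0. Elovl1 counted 116, 148 and 146 UMIs in the vehicle and 127, 85 and 80 in the rIL-13 libraries. Without Elovl1, the share of the list in rIL-13 replicate 1 lay below that in vehicle replicate 3, so the groups overlapped. Of 8 tested genes, 7 had a log2 fold change above 0, against 50% of all tested genes, with a median of 0.20, and 0 were called by edgeR. In the same libraries 16 of 19 tested tuft markers were above 0 (median 0.59, 10 at an unadjusted p under 0.05, 1 called higher) and 3 of 3 muscle-like markers below 0 (1 called lower). The part of these shifts in the fatty acid share was not tested. Fads1, a fatty acid desaturase, had 61.7, 25.5 and 58.6 CPM with vehicle and 110, 101 and 80.3 CPM with rIL-13, so the groups separated. The fitted log2 difference, 1.0 ± 0.36 (SE, n = 3 each), did not pass (edgeR adjusted p = 0.762). Scd2, a desaturase that makes monounsaturated fatty acids, overlapped between the groups at 0.36 ± 0.30 (edgeR adjusted p = 0.926).

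Farnesyl diphosphate, the product of Fdps, is also used to prenylate proteins. Of 13 genes of isoprenoid and prenylation steps 10 were listed and 7 tested, with a median of 0.07 and 0 called. Fnta, the subunit shared by the farnesyl and geranylgeranyl transferases, had 92.6, 102 and 93.3 CPM with vehicle and 121, 93.4 and 199 CPM with rIL-13 (0.51 ± 0.30, edgeR adjusted p = 0.866). Zmpste24, a protease that trims farnesylated prelamin A, had 39.3, 44.1 and 49.9 CPM with vehicle and 66.1, 53.9 and 67.6 CPM with rIL-13 (0.48 ± 0.36, edgeR adjusted p = 0.911). Its groups did not overlap, as in 11.1% of all listed genes.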
